A study of Mus musculus with 9 samples.

Results

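Receptors of the Siglec, SIRP, PILR and CD300 families, many of them inhibitory, and the ligand CD47, were followed across expanded mouse macrophage lines. The members were chosen by gene symbol and not by a rule on their values, but with earlier results of these data known. They were Siglec1, Siglece, Siglecg, Cd33, Sirpa, Cd47, Pilra, Pilrb1, Cd300a and Cd300lf, which made 10 of the 24411 genes in the deposited table. RNA-seq had been done on 3 yolk sac (YS) lines, 3 fetal liver (FL) lines and 3 bone marrow (BM) lines, with 1 library per line. All 9 lines came from C57BL/6 mice without genetic modification and had been grown in M-CSF, the growth factor of macrophages. The YS lines came from E9.5 embryos, the FL lines from E14.5 embryos and the BM lines from adult mice. A line was the bulk culture of a separate dish or well, grown out from colonies that appeared after months of passage. Cells of several mice had been pooled, so that lines of a group need not stand for separate animals, and p-values measure the spread between lines.

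Macrophages carry surface receptors that restrain them. Most of these receptors hold an immunoreceptor tyrosine-based inhibitory motif (ITIM) in the cytoplasmic tail, which, once phosphorylated by Src family kinases, recruits the phosphatases SHP-1 and SHP-2. Siglecs bind sialic acid on glycans, SIRPα binds CD47 on neighbouring cells and holds back their engulfment, PILRs come as inhibitory and activating pairs that bind sialylated proteins, and CD300 receptors bind lipids exposed on dying cells.

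The PILR genes differed most among the members between YS and BM lines, and the sequences upstream of their annotated starts are given first. Pilra encodes the inhibitory receptor with an ITIM, and Pilrb1 and Pilrb2 encode activating partners that signal through the adaptor DAP12. The 3 genes lie next to each other on the minus strand of chromosome 5. The 250 bases before the start of each are written 5′ to 3′ from RefSeq (GRCm38.p6), where capitals mark the longest run, of 86 bases, that is identical in all 3. They are shown because they differ so little.
Pilra (chr5:137836279-137836528): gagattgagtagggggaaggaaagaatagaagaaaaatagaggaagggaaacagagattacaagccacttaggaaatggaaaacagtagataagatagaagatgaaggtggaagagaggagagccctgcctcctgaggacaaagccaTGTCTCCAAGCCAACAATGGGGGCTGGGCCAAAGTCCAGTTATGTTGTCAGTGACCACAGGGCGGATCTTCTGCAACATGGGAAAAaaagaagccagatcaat
Pilrb1 (chr5:137858050-137858299): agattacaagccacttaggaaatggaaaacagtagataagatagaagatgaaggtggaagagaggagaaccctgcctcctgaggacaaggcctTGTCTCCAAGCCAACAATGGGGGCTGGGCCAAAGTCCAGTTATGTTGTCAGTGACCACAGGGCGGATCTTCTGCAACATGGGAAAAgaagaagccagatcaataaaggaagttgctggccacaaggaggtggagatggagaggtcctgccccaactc
Pilrb2 (chr5:137871759-137872008): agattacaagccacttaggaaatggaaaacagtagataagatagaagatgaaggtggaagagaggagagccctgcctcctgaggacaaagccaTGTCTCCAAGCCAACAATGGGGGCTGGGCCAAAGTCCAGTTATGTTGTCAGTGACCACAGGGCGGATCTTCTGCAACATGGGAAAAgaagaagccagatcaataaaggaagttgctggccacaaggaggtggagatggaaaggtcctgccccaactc
In windows of 250 bases before to 50 bases after the start, Pilra and Pilrb1 were identical at 242 of 246 aligned bases (98.4%), with 4 mismatches and no gap. The aligned block began at position -196 of the Pilra window and at -250 of the Pilrb1 window, so the annotated starts of both genes lie at different points of the same sequence. Pilra and Pilrb2 were identical at 244 aligned bases with 2 mismatches (99.2%), and Pilrb1 and Pilrb2 at 292 bases with 8 mismatches (97.3%). Windows were held for 8 of the 10 members, not for Siglec1 and Sirpa. No other pair of these 8 was alike over so long a stretch, the longest being Siglece and Cd33 with 88 identical bases (60.7% of the aligned positions).

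Expression was given as TPM, an abundance scaled by transcript length and by library, so levels of different genes can be compared. Read numbers cannot be had from TPM, which leaves library depth unknown, and the error of a value is the SD over 3 lines. Between 13345 and 14322 genes per library were above 0. Genes entered the tests if 3 or more libraries reached 1 TPM, which left 11753. Of the 10 members, 9 passed this filter. Of these, 8 reached 1 TPM in every line. Pilrb1 reached it in 2 of the 3 BM lines, and so passed through the YS and FL lines, where it was high. Siglecg did not pass. Outside the members, Pilrb2, Cd300e, Cd300lg, Casd1, Cmah, St3gal6, Mx1, Ifi44, Kdr and Cdh5 reached 1 TPM in at most 1 BM line. They too passed through the YS and FL lines, so their tests against BM lines were not free of the filter. The label macrophage was checked against 8 markers, and all 8 were at 1 TPM or more in every line. Fcgr1 (CD64) was however low in the BM lines, at 5.47, 42.1 and 1.68 TPM, against 110 to 330 TPM elsewhere. BM line 2 stood apart from the other BM lines. Its values for 45 genes that YS line 2 expressed at 20 TPM or above, and the other BM lines at less than 0.5 TPM, were a median of 14.1% of those in YS line 2, and it alone held much Hba-a1 (215 TPM), a globin gene. Whether RNA or cells of other lines entered this library was not tested, so its low values are less certain. It was the highest BM line for 7 of the 9 tested members, where 31.4% of all tested genes had it highest. Calls of named genes are also given without it where they change.

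Sirpa was the highest member in all 9 lines. Its group means were above those of 99.0% to 99.4% of the genes in the table. SIRPα is the inhibitory receptor for CD47. Sirpa was at 814, 829.6 and 505 TPM in the YS lines, at 818, 1028 and 930.2 TPM in the FL lines and at 594, 568 and 590.0 TPM in the BM lines. All FL lines were above all BM lines, whereas YS line 3 was below them. Cd47 was at 63.2, 115 and 159 TPM in the YS lines, at 109.9, 74.9 and 109.7 TPM in the FL lines, and at 83.2, 83.2 and 75.5 TPM in the BM lines, and the 3 groups overlapped. The ratio of Sirpa to Cd47 lay between 6.82 and 7.82 in the BM lines and between 3.19 and 13.7 in the YS and FL lines. YS lines spread widest around this ratio, from 3.19 in line 3 to 12.9 in line 1.

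Among the sialic acid receptors, Cd33 encodes Siglec-3, Siglece an inhibitory Siglec of neutrophils, monocytes and macrophages, and Siglec1 the adhesion receptor sialoadhesin of resident macrophages. Cd33 was at 209, 137 and 167 TPM in the YS lines, at 109.8, 109.7 and 145 TPM in the FL lines, and at 36.6, 46.3 and 22.3 TPM in the BM lines. Every BM line was below every YS and FL line. Siglece was lower in level, at 28.4, 27.0 and 39.2 TPM in the YS lines, 34.4, 35.3 and 28.1 TPM in the FL lines and 10.8, 11.8 and 7.54 TPM in the BM lines, and again no BM line reached a YS or FL line. Siglec1 varied most within groups. It was at 50.9, 153 and 105 TPM in the YS lines, at 209, 82.0 and 260.1 TPM in the FL lines, and at 31.2, 75.2 and 7.09 TPM in the BM lines. BM line 2 was above YS line 1, while all FL lines were above all BM lines. Siglecg, known from B cells, was listed at 0 in all lines but YS line 3 (0.14 TPM) and FL line 2 (0.05 TPM). Siglec1, Siglece, Siglecg and Cd33 together came to 288 to 317 TPM in the YS lines, 227 to 434 TPM in the FL lines and 37.0 to 133 TPM in the BM lines.

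Pilra was at 52.9, 91.6 and 153 TPM in the YS lines and at 128, 65.2 and 133 TPM in the FL lines, but at 6.45, 17.8 and 6.12 TPM in the BM lines. Pilrb1 was at 9.60, 13.1 and 48.3 TPM in the YS lines, 12.5, 11.2 and 13.8 TPM in the FL lines and 1.07, 2.21 and 0.920 TPM in the BM lines. In both genes the highest BM line, line 2, was below the lowest YS and FL line. The inhibitory gene was the higher in all 9 lines, with a Pilra to Pilrb1 ratio between 3.18 and 10.3. This ratio was 6.03, 8.04 and 6.65 in the BM lines, within the range of the YS and FL lines, so both genes were low in the BM lines together. Pilrb2, which is not a member, was at 4.29, 9.98 and 22.2 TPM in the YS lines, 10.6, 10.2 and 11.2 TPM in the FL lines and 0.750, 0.790 and 0 TPM in the BM lines. Of the runs of 75 bases in Pilrb1 transcripts (GENCODE M21), 9.3% also occur in Pilrb2 and 11.2% in any other gene, against 2.5% for Pilra, so the split of reads between Pilrb1 and Pilrb2 is less certain than their sum.

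CD300a and CLM-1, encoded by Cd300a and Cd300lf on chromosome 11, are ITIM receptors that bind phosphatidylserine and other lipids. Cd300lf was at 49.3, 73.2 and 106 TPM in the YS lines, 69.9, 76.3 and 98.4 TPM in the FL lines and 28.1, 38.3 and 21.4 TPM in the BM lines. No BM line reached a YS or FL line. Cd300a ran the other way, at 47.6, 57.2 and 82.3 TPM in the YS lines, 62.0, 143 and 94.9 TPM in the FL lines and 123, 97.6 and 111 TPM in the BM lines. All YS lines were below all BM lines, and the FL lines overlapped both groups. Thus Cd300a exceeded Cd300lf by 2.55 to 5.19 times in the BM lines, whereas the ratio was between 0.776 and 0.965 in the YS lines and between 0.887 and 1.88 in the FL lines. The ratios of the BM lines did not overlap those of the other lines. They were given no test, since this ratio was chosen after its values were seen.

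**Figure D1:**
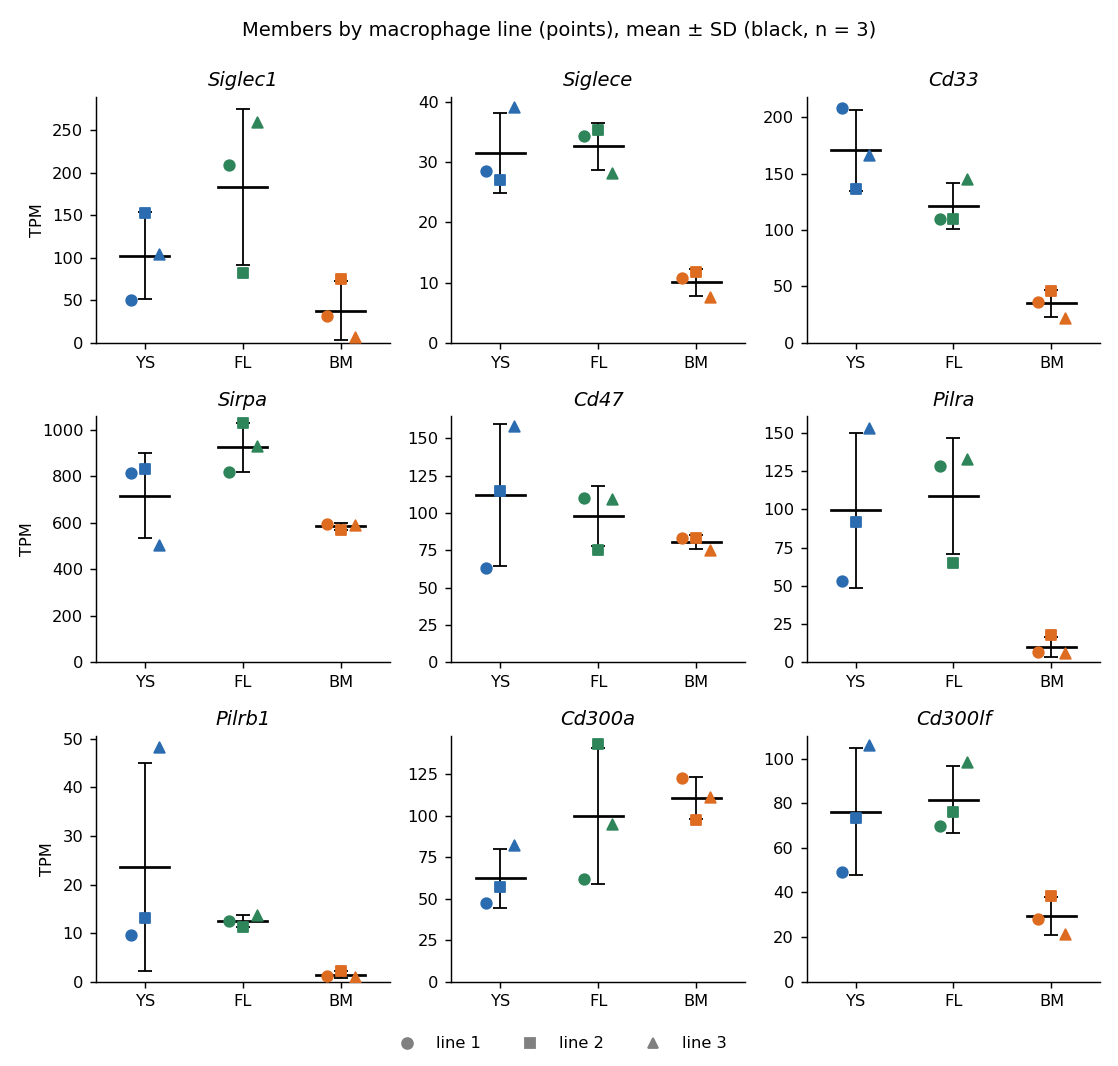
TPM of the 9 tested members in each YS, FL and BM line (points, shaped by line number), with the mean and SD of 3 lines in black and each axis starting at 0. The BM lines sat below all YS and FL lines for Siglece, Cd33, Pilra, Pilrb1 and Cd300lf, Sirpa was the highest member, and Cd300a was highest on average in the BM lines (111 TPM).

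YS lines were compared with BM lines to ask how these receptors differ between embryo-derived and adult-derived lines, which were also established by different culture routes. Differences are on the log2(TPM + 1) scale, which understates changes of low genes, and a gene was called at a limma adjusted p under 0.1 and more than 2-fold. In YS lines, 5 of the 9 tested members rose and 0 fell, where 12.8% of all tested genes were called, 7.57% higher and 5.22% lower. The 5 include Pilrb1, which passed the filter through the YS and FL lines, so its call is not free of the filter. Quantile normalization turned the split over all genes from 890 higher and 614 lower to 724 and 763, and 5 members were called with it too. Pilra rose by 3.20 (SE 0.493, adjusted p = 0.00378), from 10.1 ± 6.63 to 99.3 ± 50.7 TPM (SD, n = 3). Pilrb1 rose by 3.06 (SE 0.507, adjusted p = 0.0048), from 1.40 ± 0.706 to 23.7 ± 21.4 TPM, and by 2.39 without YS line 3, its highest line. For Cd33 the rise was 2.29 (SE 0.265, adjusted p = 0.00157), with means of 35.1 ± 12.1 and 171 ± 36.2 TPM. Smaller rises were found for Siglece, by 1.56 (SE 0.202, adjusted p = 0.00218), and for Cd300lf, by 1.32 (SE 0.296, adjusted p = 0.014). The call of Cd300lf was lost once its TPM was summed with that of Cd300ld, which shares 1.1% of its runs of 75 bases (1.12, adjusted p = 0.132). Cd300ld is the higher gene, with means of 177, 289 and 76.0 TPM in YS, FL and BM lines. The sum and its larger error (SE 0.511) therefore mostly reflect Cd300ld.

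The remaining 4 tested members were not called in YS lines. Siglec1 differed by 1.80 (95% interval -0.01 to 3.62, adjusted p = 0.123). Leaving out single lines moved it from 0.93 (adjusted p = 0.345, without BM line 3) to 2.55 (adjusted p = 0.0475, without BM line 2). It was called without BM line 2 or YS line 1 (2.23, adjusted p = 0.0974) and not without any other line. Cd300a was lower by 0.85 on this scale (-0.85, SE 0.299, adjusted p = 0.0656), short of 2-fold, and passed both thresholds without YS line 3 (-1.06, adjusted p = 0.04). The differences of Sirpa (0.26, 95% interval -0.17 to 0.69) and Cd47 (0.38, 95% interval -0.31 to 1.06) spanned 0. The median difference of the 9 members was 1.56, beside 0.11 for all tested genes. The groups did not overlap in 6 of the 9 members, 5 with YS lines above and Cd300a with YS lines below, where 49.0% of all tested genes did not overlap.

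In FL lines compared with the same BM lines, 6 of the 9 members rose and 0 fell, where 10.3% of all tested genes were called, 6.01% higher and 4.30% lower. Pilrb1, whose call is not free of the filter, is again among the 6. Both comparisons share the BM lines and are therefore not independent. Pilra rose by 3.39 (SE 0.493, adjusted p = 0.00279), to 109 ± 37.9 TPM, and Pilrb1 by 2.53 (SE 0.507, adjusted p = 0.0102), to 12.5 ± 1.31 TPM. The rise of Cd33 was 1.81 (SE 0.265, adjusted p = 0.00288), of Siglece 1.62 (SE 0.202, adjusted p = 0.00153) and of Cd300lf 1.47 (SE 0.296, adjusted p = 0.0103). Siglec1 rose by 2.62 (SE 0.797, adjusted p = 0.0509), from 37.8 ± 34.6 to 184 ± 91.8 TPM, and this call depended on single lines. It was lost without FL line 1 (adjusted p = 0.13), FL line 3 (adjusted p = 0.142), BM line 1 (adjusted p = 0.116) or BM line 3 (1.74, adjusted p = 0.135), and without BM line 2 the difference was 3.36 (adjusted p = 0.0229). Sirpa was 0.66 higher (SE 0.19, adjusted p = 0.043), under 2-fold and hence not called. Cd47 (0.26, adjusted p = 0.593) and Cd300a (-0.22, adjusted p = 0.656) were not called. The members' median was 1.62, beside 0.09 for all tested genes. The groups did not overlap in 7 of the 9 members, all with FL lines above. Of all tested genes, 49.5% did not overlap, counting both directions.

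BM line 2 held 3.93 times the mean of the other BM lines for Siglec1, 2.83 times for Pilra and 2.22 times for Pilrb1. For the rest this ratio ran from 0.834 (Cd300a) to 1.57 (Cd33). Without BM line 2, 6 members rose in YS lines and 6 in FL lines, Pilra by 3.65 and 3.85 and Pilrb1 by 3.29 and 2.76. In bulk RNA, fewer cells expressing a gene and less RNA per cell cannot be told apart.

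**Figure D2:**
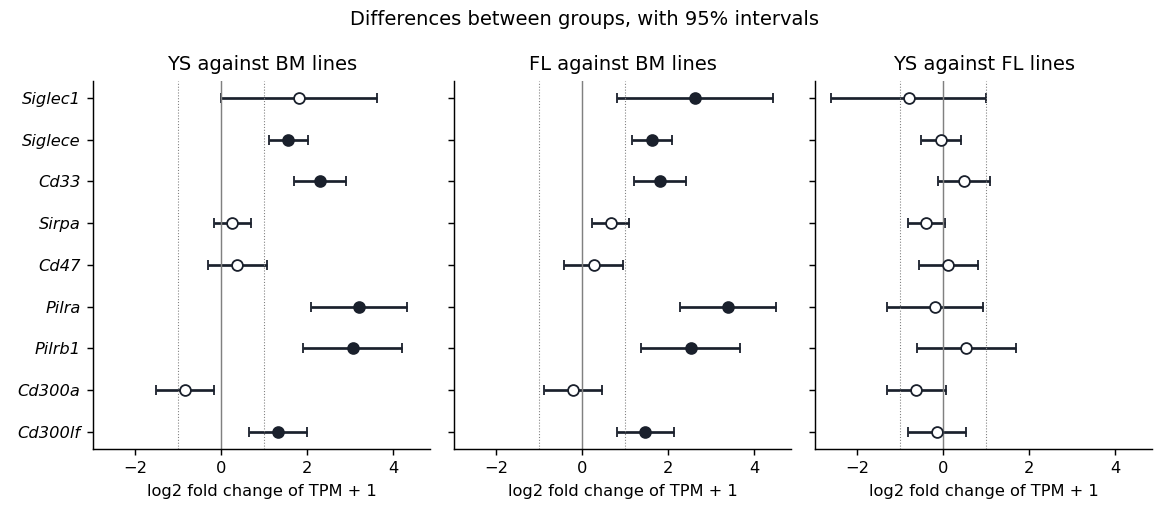
Log2 fold change of TPM + 1 with its 95% interval from limma for the 9 tested members in the 3 comparisons, with filled points for called genes and dotted lines at 2-fold. Called members are Siglece, Cd33, Pilra, Pilrb1 and Cd300lf in YS against BM lines, the same 5 and Siglec1 in FL against BM lines, and none in YS against FL lines.

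YS and FL lines, both from embryos, were then compared with each other. By limma, 0 of the 9 members were called, 0 had an unadjusted p under 0.05, and all 9 overlapped between the groups, where 3.79% of all tested genes were called (YS lines being higher in 1.95% and lower in 1.85%) and 26.1% did not overlap. The share of all genes called fell to 0.689% with only these 6 libraries fitted, to 1.63% without FL line 3 and to 1.69% without FL line 2. The intervals limit the differences that remain possible. For Siglece the 95% interval ran from -0.52 to 0.40, and for Sirpa from -0.83 to 0.04. Those of Cd47 (-0.57 to 0.80) and Cd300lf (-0.82 to 0.52) also stayed within 2-fold. For Cd33, the mean was 171 TPM in YS and 122 ± 20.5 TPM in FL lines, with an interval of -0.13 to 1.08. That interval and those of Siglec1 (-2.63 to 1.00), Pilra (-1.31 to 0.93), Pilrb1 (-0.62 to 1.69) and Cd300a (-1.31 to 0.05) leave room for differences of more than 2-fold in at least one direction. YS lines spread more than FL lines in Pilrb1, with a coefficient of variation of 90.4% against 10.5%, since YS line 3 was at 48.3 TPM.

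The rest of the Siglec family was then described. Of 9 family genes, 5 were tested, and outside the members only Cd22 and Siglec15 were among them. Siglec15, which pairs with DAP12 and is known from osteoclasts, ran opposite to the member Siglecs. It was at 38.5, 34.7 and 55.0 TPM in the BM lines, at 1.75, 10.2 and 0.360 TPM in the YS lines and at 5.49, 2.29 and 14.6 TPM in the FL lines. It fell by 3.63 in YS lines (-3.63, adjusted p = 0.0116) and by 2.63 in FL lines (-2.63, adjusted p = 0.045). Cd22, known from B cells, was at most 5.82 TPM and not called. Siglecf, known from eosinophils and alveolar macrophages, stayed between 0.32 and 1.13 TPM in YS and FL lines and between 0.06 and 0.12 TPM in BM lines, below the filter. In all, 2 of the 5 tested family genes rose and 1 fell in YS lines, and 3 rose and 1 fell in FL lines. Of all tested genes, 12.8% and 10.3% were called in these comparisons.

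Of the PILR and CD300 families, 12 genes were tested, and 8 rose in each comparison with BM lines, where 1 fell in YS lines and 0 in FL lines. Of all tested genes, 7.57% rose and 5.22% fell in YS lines, and 6.01% rose and 4.30% fell in FL lines. Of the 8 family genes that are not members, 5 rose in each comparison. Among these, Pilrb2, Cd300e and, in YS lines, Cd300lg had passed the filter through the YS and FL lines. Without BM line 2, 7 of the 12 rose and 0 fell in YS lines, and 8 rose in FL lines. Pilrb2 rose by 2.92 in YS lines (adjusted p = 0.00473) and by 2.99 in FL lines (adjusted p = 0.004). Cd300e, an activating receptor of monocytes, was at 1.34, 93.4 and 488 TPM in the YS lines, 37.5, 98.7 and 70.7 TPM in the FL lines and 0.310, 7.34 and 0.780 TPM in the BM lines. Its rises of 4.15 (SE 1.68, adjusted p = 0.0969) and 4.60 (SE 1.68, adjusted p = 0.09) were the largest of the family, with the largest error, and without BM line 2 neither was called (adjusted p = 0.104 and 0.103). Cd300lg rose in YS lines by 3.57 (adjusted p = 0.0248) and differed by 2.33 in FL lines (adjusted p = 0.119; 3.22, adjusted p = 0.0466, without BM line 2). Cd300lh (also Cd300ld3) rose by 2.12 (adjusted p = 0.0431) and 3.06 (adjusted p = 0.0133). Cd300lb, an activating receptor that signals through DAP12, fell in YS lines by 1.11 (-1.11, adjusted p = 0.0721), a call lost without BM line 2 (adjusted p = 0.129). Hence the gene that fell and Cd300a, the member whose difference was negative, both had their highest means in the BM lines. The rows Gm11710 and Gm11711 held the same values in every library and were counted once.

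**Figure D3:**
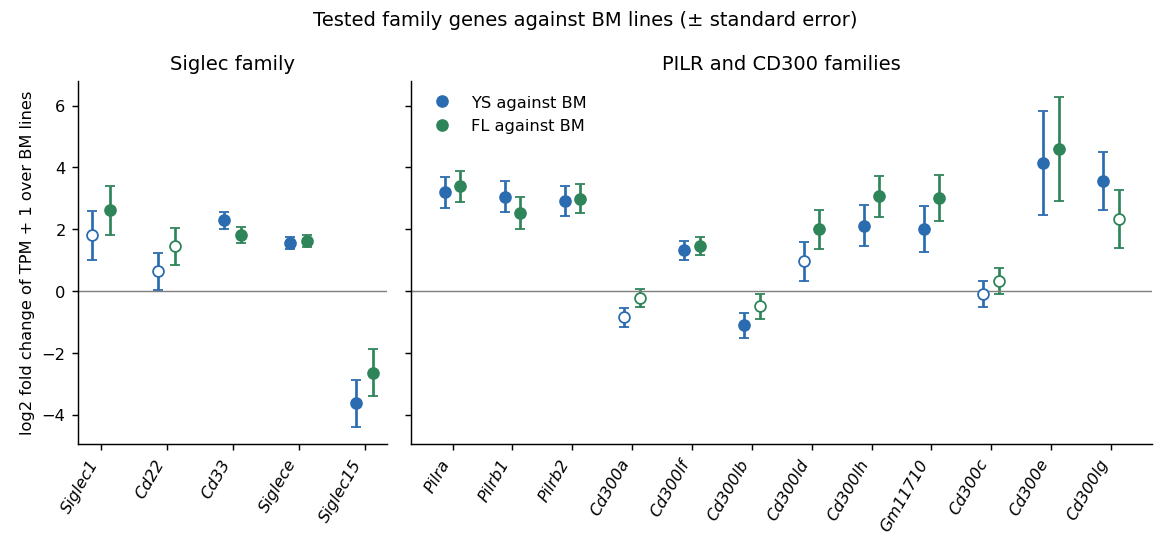
Log2 fold change of TPM + 1 over BM lines, with standard errors, for the tested genes of the Siglec family and of the PILR and CD300 families, in YS lines (blue) and FL lines (green), with filled points for called genes. Siglec15 lies at -3.63 and -2.63 below the other Siglecs, and most PILR and CD300 genes lie above 0, with Cd300a and Cd300lb below it in both comparisons and Cd300c slightly below it in YS lines (-0.09).

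The tested genes beside the PILR genes were not called in any comparison. Zcwpw1, the protein-coding gene beside Pilra, differed by -0.06 in YS lines and by -0.12 in FL lines from BM lines (adjusted p = 0.919 and 0.865). Mepce, the next gene, differed by 0.14 and -0.06 (adjusted p = 0.614 and 0.871). Cyp3a13, on the other side of Pilrb2, was listed at or near 0 in every line and was not tested. Beside Siglec1, Adam33 differed by 1.17 in YS lines (adjusted p = 0.125) and rose by 1.69 in FL lines (adjusted p = 0.0524). Beside Cd33, the zinc finger gene Zfp658 rose by 1.33 in YS lines (adjusted p = 0.00863) and by 1.07 in FL lines (adjusted p = 0.0213). Zfp719, 2 genes from Cd33, had means of 5.93, 5.03 and 5.48 TPM in YS, FL and BM lines. Ctu1, beside Siglece, differed by 0.44 and 0.23 (adjusted p = 0.114 and 0.428). For 1700037H04Rik, 2 genes from Siglec1, the differences were -0.28 and 0.11 (adjusted p = 0.211 and 0.674). These neighbours were looked up after the members' values were seen.

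**Figure D4:**
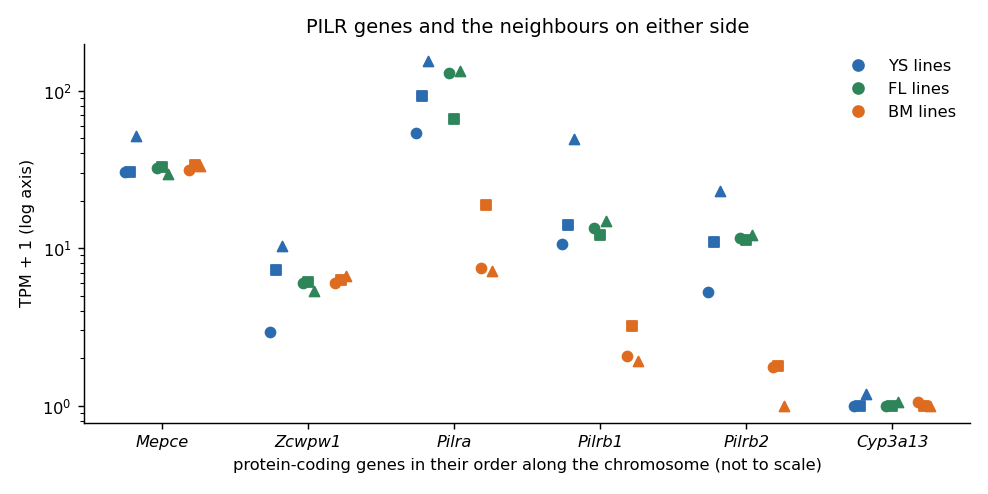
TPM + 1 on a log axis in each line (points shaped by line number as above) for the PILR genes and the protein-coding genes on either side, in their order along chromosome 5 and not to scale. Pilra, Pilrb1 and Pilrb2 are lower in the orange BM lines than in the YS and FL lines, whereas Mepce and Zcwpw1 overlap across the groups.

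Promoter windows were held for 8 of the 10 members, not for Siglec1 and Sirpa, and were searched on both strands for 3 short motifs of macrophage and interferon regulation. The motifs do not overlap each other in the PILR windows. AGGAAGT, a core bound by PU.1 and other ETS factors, was in 9.4% of 32851 promoter windows and in those of Pilra, Pilrb1, Pilrb2 and Cd300lf. It began at position -52 in Pilrb1 and Pilrb2 and at 2 in Pilra. The core of the interferon-stimulated response element, searched as GAAA, 2 bases of any kind and GAAA again, was in 3.4% of windows and, among these genes, in the 3 PILR windows, at -178 in Pilra and -232 in Pilrb1 and Pilrb2. TTGCNNAA, a C/EBP core, was in 10.8% of windows, among them those of Cd300a and the 3 PILR genes. Since the PILR windows are copies of nearly the same sequence, their matches count as one. A match is a run of letters and does not show that a factor binds there.

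Siglec1 is known as an interferon-stimulated gene, and 12 other such genes were listed beside it. In YS lines 8 of the 12 rose and 0 fell, and in FL lines 2 rose and 0 fell compared with BM lines, with 0 called between YS and FL lines. Of all tested genes, 7.57% rose in YS lines and 6.01% in FL lines. Without BM line 2, 9 rose in YS lines and 4 in FL lines. Mx1, an antiviral GTPase, was at 39.2, 68.4 and 105 TPM in the YS lines, 44.3, 6.55 and 23.3 TPM in the FL lines and 0.220, 3.22 and 0 TPM in the BM lines, and rose by 5.27 (adjusted p = 0.00291) and 3.55 (adjusted p = 0.012), or by 5.91 and 4.20 without BM line 2. Ifi44 rose by 4.89 in YS lines (adjusted p = 0.0233; 6.01 without BM line 2). Mx1 and Ifi44 each reached 1 TPM in 1 BM line and passed the filter through the YS and FL lines, so their calls are not free of it. Within groups, the lowest line of the interferon genes was YS line 1 for 11 of the 12, FL line 2 for all 12 and BM line 3 for all 12. Siglec1 was lowest in the same 3 lines, as were Pilra, Pilrb1 and Cd47, which made 4 of the 9 tested members, whereas 4.8% of all tested genes had these 3 lines lowest. The highest BM line was line 2 for all 12, as for 7 of the 9 tested members, Siglec1 among them. In the other groups the highest interferon line was mostly YS line 3 and FL line 1, where Siglec1 was highest in YS line 2 and FL line 3. The part of interferon signalling in these differences was not tested.

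**Figure D5:**
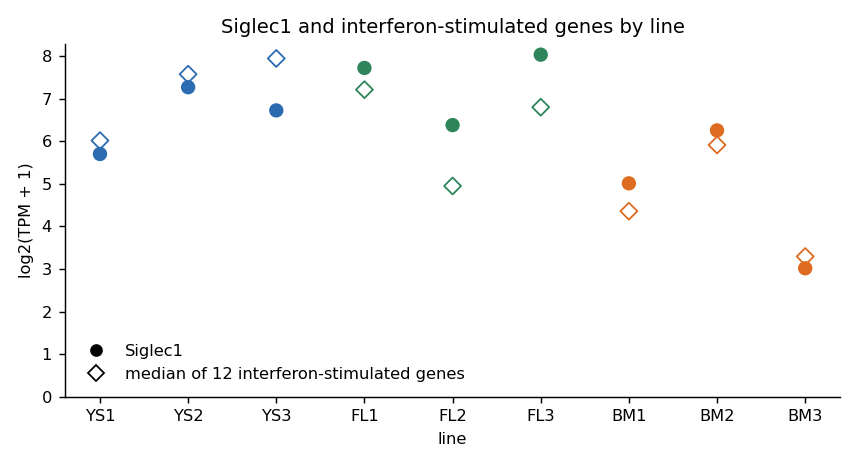
Log2(TPM + 1) of Siglec1 (filled circles) and the median of 12 interferon-stimulated genes (open diamonds) in each of the 9 lines, coloured by group. Both are lowest within their group in YS line 1, FL line 2 and BM line 3, and in the BM group both run from about 3 in line 3 to about 6 in line 2 (3.02 and 6.25 for Siglec1).

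Genes that act with the receptors were counted next. Ptpn6 and Ptpn11, which encode SHP-1 and SHP-2, were not called in any comparison. Ptpn6 was at 321 to 364 TPM in the FL lines, below all other lines (438 to 551 TPM), and its difference from BM lines was under 2-fold (-0.58, SE 0.117, adjusted p = 0.0106). Ptpn11 lay between 52.9 and 69.3 TPM. Of 15 tested phosphatases, kinases and adaptors, 2 rose and 1 fell in YS lines and 3 rose and 1 fell in FL lines compared with BM lines, where 12.8% and 10.3% of all tested genes were called, and 0 were called between YS and FL lines. Src fell by 2.26 (-2.26, adjusted p = 0.00129) and by 2.41 (-2.41, adjusted p = 0.000768), from 5.17 to 7.09 TPM in the BM lines to under 1 TPM. It passed the filter through the BM lines, where it is high, and so had to differ. Csk, the kinase that restrains Src family kinases, rose in YS lines by 1.21 (adjusted p = 0.00291), and the ubiquitin ligase gene Cbl rose by 1.09 (adjusted p = 0.0118) and 1.02 (adjusted p = 0.0169), the latter under 2-fold without BM line 2 (0.99). In FL lines, Lyn (1.05, adjusted p = 0.00212) and Fyn (1.07, adjusted p = 0.026) rose. In the SIRP and CD47 axis, of 9 tested genes, Lrp1, the receptor for calreticulin, fell in YS lines (-1.02, adjusted p = 0.00129) and Sirpb1b, an activating relative of Sirpa, rose in FL lines (2.81, adjusted p = 0.0427). Sirpb1b shares 46.9% of its runs of 75 bases with other genes, so its own level is uncertain.

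Siglec ligands are built by enzymes that make, transfer and trim sialic acid. Of 20 such genes tested, 4 rose in YS lines, 2 rose in FL lines and 0 fell, compared with BM lines, and St8sia4 was called higher in YS than in FL lines (1.03, adjusted p = 0.0629), a call lost without BM line 2 (adjusted p = 0.102). Of all tested genes 12.8%, 10.3% and 3.79% were called in these comparisons, so 2 of 20 in FL lines against BM lines and 1 of 20 in YS against FL lines were near the background. Casd1, which adds acetyl groups to sialic acid, was at 37.9, 43.2 and 43.9 TPM in the YS lines, 26.9, 45.0 and 39.0 TPM in the FL lines and 0, 6.62 and 0.04 TPM in the BM lines. It rose by 4.42 (adjusted p = 0.00383) and 4.22 (adjusted p = 0.00412), or by 5.38 and 5.19 without BM line 2. Among BM lines only line 2 reached 1 TPM, so Casd1 passed the filter through the YS and FL lines. Cmah, the hydroxylase that makes the N-glycolyl form of sialic acid, rose by 2.28 (adjusted p = 0.00383) and 2.36 (adjusted p = 0.00302), having passed the filter through the YS and FL lines alone. The sialyltransferase genes St3gal6 (2.82, adjusted p = 0.0252) and St3gal4 (1.38, adjusted p = 0.00254) rose in YS lines. St3gal6 was at 31.2, 8.24 and 1.93 TPM in the YS lines and reached 1 TPM in 1 BM line, so it too passed the filter through the YS and FL lines. Of the 4 genes that rose in YS lines, the calls of Casd1, Cmah and St3gal6 are therefore not free of the filter.

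Other inhibitory receptors of myeloid cells, not all of which hold an ITIM (Cd200r1 and Havcr2 do not), were called in both directions. Of 12 tested, 1 rose and 2 fell in YS lines, and 2 rose and 1 fell in FL lines compared with BM lines, where 12.8% and 10.3% of all tested genes were called. Ceacam1 rose by 2.28 (adjusted p = 0.00183) and 2.38 (adjusted p = 0.00119). Clec12a, a receptor for uric acid crystals, fell by 2.45 (-2.45, adjusted p = 0.0129) and by 1.51 (-1.51, adjusted p = 0.0847), from 395 to 479 TPM in the BM lines. Pirb fell in YS lines compared with BM lines (-1.48, adjusted p = 0.0109) and with FL lines (-1.35, adjusted p = 0.049). Cd200r1 (-3.91, adjusted p = 0.0689) and Havcr2 (-1.07, adjusted p = 0.0254) were lower in YS than in FL lines, so this list had 3 of 12 called between YS and FL lines, where 3.79% of all tested genes and 0 members were. Without BM line 2, the calls of Clec12a in FL lines (adjusted p = 0.149) and of Cd200r1 (adjusted p = 0.112) were lost.

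The genes most like each member over the 9 libraries, by Pearson's r of log2(TPM + 1), were named for the members that spanned at least 4-fold. They are a description over lines that share their groups and carry no p-value. Siglec1 was most like Rtp4 (r = 0.964), an interferon-stimulated gene, followed by its neighbour Adam33 (r = 0.961) and Ang (r = 0.953). Closest to Cd33 were Myo7a (r = 0.984), Jund and Nfkbil1, and to Siglece Maml2 (r = 0.993), Rps6ka1 and Stk10. Pilra was most like B4galt5 (r = 0.989), Errfi1 and Crim1, and Pilrb1 most like Phc2 (r = 0.993), Dock2 and Cln6. For Cd300lf the closest were Fam219aos (r = 0.979), Tcn2 and Slc37a3.

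Markers of other cell types were counted beside the members. The 5 B cell markers summed to at most 1.61 TPM in any line, the 4 T and NK cell markers in the table were listed at 0, and the 6 eosinophil and mast cell markers summed to at most 1.64 TPM, and none of them was tested. Of the neutrophil markers only S100a8 was tested, at 10.5 to 25.1 TPM in the FL lines and at most 5.00 TPM elsewhere. The 5 dendritic cell markers summed to 188 to 482 TPM in the BM lines and 607 to 1852 TPM in the others, nearly all of it Bst2, which is also an interferon-stimulated gene, while Flt3 was at 0. Zbtb46 was at 6.03 to 7.09 TPM in the YS lines and 2.55 to 2.91 TPM in the BM lines and rose in YS lines (1.05, adjusted p = 0.028). Erythroid and megakaryocyte markers summed to 39.1 to 621 TPM in the BM lines, 236 to 2122 TPM in the YS lines and 616 to 1730 TPM in the FL lines, mostly Pf4. Fibroblast and endothelial markers summed to at most 2.01 TPM in the BM lines, 0.720 to 55.8 TPM in the YS lines and 18.7 to 51.7 TPM in the FL lines. Kdr made up most of this in the FL lines, and Cdh5, at 1.26 to 1.38 TPM there and at most 0.280 TPM in the BM lines, also rose in FL lines (1.10, adjusted p = 0.0366), while Col3a1 was at 0 in the YS and FL lines. Bst2, Pf4 and Kdr were called higher in both comparisons with BM lines, in the direction of the called members (Kdr in YS lines not without BM line 2, adjusted p = 0.125), and their part in those results was not tested. Kdr and Cdh5 had passed the filter through the YS and FL lines.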

How the data were processed

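Bulk RNA-seq of 3 YS, 3 FL and 3 BM macrophage lines was used, grouped by the sample titles. The authors selected poly(A) RNA, kept strand information, sequenced single reads of 75 nt and deposited gene-level TPM, listed for 24411 symbols. Per the submitters' processing notes, Trim Galore 0.6.6, STAR 2.7.9a and RSEM 1.3.3 were used. The genome build is not given in the sources used here, and TPM carries no depth.

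From the TPM, log2(TPM + 1) was computed and 11753 genes (1 TPM or more in 3 or more libraries) were fitted in 1 limma 3.58.1 model (R 4.3.3, intensity trend, group only), with Benjamini-Hochberg adjustment over all genes tested in each comparison. Genes were called at an adjusted p under 0.1 and more than 2-fold. On simulated data with 200 of 11753 genes changed 4-fold between YS and BM lines, 86.5% were recovered and 5.98% of calls were false. Promoters came from RefSeq (GRCm38.p6), aligned locally with Biopython 1.88, and shared runs from GENCODE M21 transcripts.

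The members and lists were chosen with earlier results of these data known. All members were named. From each list at most 4 called genes with the largest differences were named, and from each tested member spanning 4-fold the 3 most correlated genes. Other genes named, the promoter comparison, the ratios and the neighbours were chosen after values were seen. Alternatives changed the pseudocount (0.1 or 4), filter, scaling, trend, libraries, thresholds, block, sums with related genes and lines.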

Additional observations from a re-analysis of the deposited data

How the results depend on the processing

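Compared with BM lines, 4 to 6 members were called in YS lines and 5 to 7 in FL lines, whereas YS compared with FL lines gave 0, under all 12 alternatives besides leaving out lines. The lowest count in YS lines, 4, came from summing Cd300lf with Cd300ld. Leaving out each of the 9 lines in turn gave 5 to 6, 5 to 6 and 0, with the filter on low values kept from all libraries. The single members' differences were counted under these alternatives except the changes of threshold. Of them, 487 stayed as they were, called or not called, 3 gained a call, 5 lost one, and 0 called differences turned direction. Uncalled differences that changed sign count as unchanged, as Cd300a in FL against BM lines did (-0.52 to 0.08). Leaving out a line of the third group alters the error but not the difference. Those that gained or lost a call were Siglec1, Cd300a without YS line 3, and Cd300lf when summed with Cd300ld. The changes of threshold moved further calls. At an adjusted p under 0.05, the call of Siglec1 in FL lines was also lost. With no fold threshold, Cd300a was called lower in YS lines (limma adjusted p = 0.0656) and Sirpa higher in FL lines (adjusted p = 0.043), both compared with BM lines. The titles share the numbers 1 to 3 without a stated pairing, and deviations of same-numbered lines correlated between -0.118 and 0.088, so the numbers were not taken as pairs. With the replicate number as a block, 5, 6 and 0 members were called, as without it. Over all tested genes, calls higher and lower in YS against BM lines were 890 and 614, against 724 and 763 after quantile normalization and 763 and 741 with median-of-ratios scaling, while the median difference of all genes moved from 0.11 to -0.01 and 0. In FL against BM lines they were 706 and 505, against 592 and 593, and 623 and 583. The calls between YS and FL lines over all genes were 446, but 81 when only those 6 libraries were fitted, 1500 with no fold threshold, and from 191 (without FL line 3) to 588 (without YS line 2) with a line left out. The rise of Pilrb1 was 2.10 in YS lines and 1.62 in FL lines with a pseudocount of 4, and 3.71 and 3.16 with a pseudocount of 0.1. The list counts without BM line 2 were added after seeing the data. TPM gives no counting error, and 3 lines per group leave wide intervals for Siglec1, Pilra and Pilrb1.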
